A study of Mus musculus with 6 samples.

Results

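The genes described here are 10 genes of the unfolded protein response, the programme that cells switch on when misfolded protein gathers in the endoplasmic reticulum (ER). They were taken by gene symbol from a table of read counts with 49997 symbols, and all 10 were found: Eif2ak3, Ern1, Atf6, Xbp1, Atf4, Ddit3, Hspa5, Hsp90b1, Dnajb9 and Dnajc3. RNA had been sequenced from small pre-B cells, B-cell precursors that rearrange their immunoglobulin light chain genes, sorted from the bone marrow of C57BL/6 mice aged 6 to 12 weeks. Of the 6 libraries, 3 came from wild-type (WT) mice and 3 from ΔrsCBE mice. The prefix Δ marks a deletion. The labels do not spell out the abbreviation, give the deleted interval, or say whether each library is a separate animal. The p-values thus measure the spread between these libraries, which may be technical. Within ΔrsCBE it is not wholly so: by the Xist counts given below, replicate 1 came from another animal than replicates 2 and 3.

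ER stress is sensed by 3 membrane proteins. PERK (gene Eif2ak3) is a kinase that slows translation by phosphorylating eIF2α and thereby lets the transcription factor ATF4 be made, which in turn raises CHOP (Ddit3). IRE1α (Ern1) is a kinase and RNase that splices Xbp1 mRNA, and ATF6 is cut in the Golgi to release a transcription factor. Their common targets include the chaperones BiP (Hspa5) and GRP94 (Hsp90b1) and the co-chaperones ERdj4 (Dnajb9) and p58IPK (Dnajc3). In the B lineage the IRE1α and XBP1 branch is known for its role in antibody-secreting plasma cells, whereas small pre-B cells secrete no antibody.

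The sequences through which several of these genes are regulated are shown first. The promoter element was matched in some members only, and the spliced stretch of Xbp1 sets what its count can show. ATF6 acts through the ER stress response element (ERSE), searched here as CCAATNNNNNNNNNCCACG on both strands of the window from 250 bases before to 50 bases after the transcription start (RefSeq, GRCm38.p6). Of 9 members with such a window, 3 held a match (Hspa5, Hsp90b1 and Dnajc3), compared with 37 of 27025 genes (0.137%). Only exact matches within the window were searched, so a gene without a match may still hold a variant of the element or one elsewhere. The matches are printed with 8 flanking bases on each side, and capitals mark the fixed letters of the element.
Hspa5, chr2:34772017-34772051, plus strand: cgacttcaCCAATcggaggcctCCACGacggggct
Hsp90b1, chr10:86705630-86705664, minus strand: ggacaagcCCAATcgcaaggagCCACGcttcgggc
Hsp90b1, chr10:86705525-86705559, minus strand, with the element on the opposite strand: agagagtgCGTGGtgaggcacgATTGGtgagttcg
Dnajc3, chr14:118937819-118937853, plus strand: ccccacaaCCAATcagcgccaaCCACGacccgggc
The Hspa5 element began 65 bases before the start site and that of Dnajc3 105 bases before it. In Hsp90b1 the elements began 212 and 107 bases before the start site. These distances count from the RefSeq start, whereas the gene coordinates given further below are those of GENCODE M21. GENCODE M21 starts Hspa5 at 34771970, so by that annotation the Hspa5 element lies within the gene. Neither TGACGTGG, the core of the element bound by XBP1 and ATF6 (present in 0.714% of genes), nor TGATGNAA, a core of the element bound by ATF4 (4.51% of genes), was found in any of the 9 windows. TGACGTGG ends in CGTGG, the reverse complement of the CCACG end of the ERSE, and TGATGNAA shares no such stretch with it.

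Xbp1 is regulated at the level of its mRNA. IRE1α removes 26 bases from it, which changes the reading frame and gives the active factor. The stretch lies in coding exon 4 at chr11:5524279-5524304 (plus strand, GENCODE M21, GRCm38) and is printed in capitals with 10 flanking bases on each side.
Xbp1: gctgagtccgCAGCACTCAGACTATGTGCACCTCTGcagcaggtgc
Gene counts sum reads of the spliced and the unspliced form, so the values for Xbp1 given here are of total mRNA and not of splicing.

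Library totals ranged from 428106 to 1300805 counts, which makes 3 counts, the floor of detection used here, worth 2.31 to 7.01 CPM (the count over the TMM-scaled library total). All 11 pre-B marker genes examined were tested, and their summed level was 12166 to 14364 CPM in WT and 13162 to 13720 CPM in ΔrsCBE. Erythroid genes summed to at most 0.792 CPM and T and NK cell genes to at most 2.53 CPM in any library. Myeloid genes summed to 53.1 to 85.8 CPM in WT and 61.7 to 69.5 CPM in ΔrsCBE, almost all of it Itgam (47.2 to 83.4 CPM). Of the other 9 myeloid genes, S100a8 and Elane were at 0 throughout. Lyz2 and S100a9 had 0 counts in each WT library and 1 to 4 in each ΔrsCBE library, Mpo, Camp and Ngp had 1 to 3 counts in all, each in ΔrsCBE, and Csf1r (10 counts) and Ltf (3 counts) occurred in both genotypes. The part of such cells in the values below was not tested. The female transcript Xist was abundant in ΔrsCBE replicates 2 and 3 (1603 and 1430 counts, at most 1 elsewhere), so the sexes are not balanced between genotypes. Cell-cycle genes were lower in ΔrsCBE (15 of 17 tested passed the test, beside 1.49% of all tested genes). Early-response genes such as Fos and Jun were higher (3 of 10, beside 0.205% of all tested genes). Among markers of pro-B and large pre-B cells 3 of 7 were tested, among those of mature B cells 3 of 6, and 0 passed. In bulk samples, a change in the share of cells of one kind cannot be told apart from a change of RNA per cell.

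Against this background, no member of the ER stress group passed the test of a difference between genotypes. All 10 passed the count filter, and 0 of them passed edgeR's quasi-likelihood test at 0.05 after Benjamini-Hochberg adjustment over 7792 genes, where 1.69% of genes did (0.205% higher and 1.49% lower in ΔrsCBE). At an unadjusted p-value under 0.05 there was 1 gene, Xbp1, among the 10, compared with 10.2% of all genes (4.22% higher in ΔrsCBE), and the DESeq2 Wald test also called 0. Log2 fold changes were above 0 for 8 of the 10, compared with 51.8% of all tested genes, and their median was 0.17 beside a median of 0.01 over all tested genes. The plot of fold changes with their intervals shows how far each gene could have moved.

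**Figure D1:**
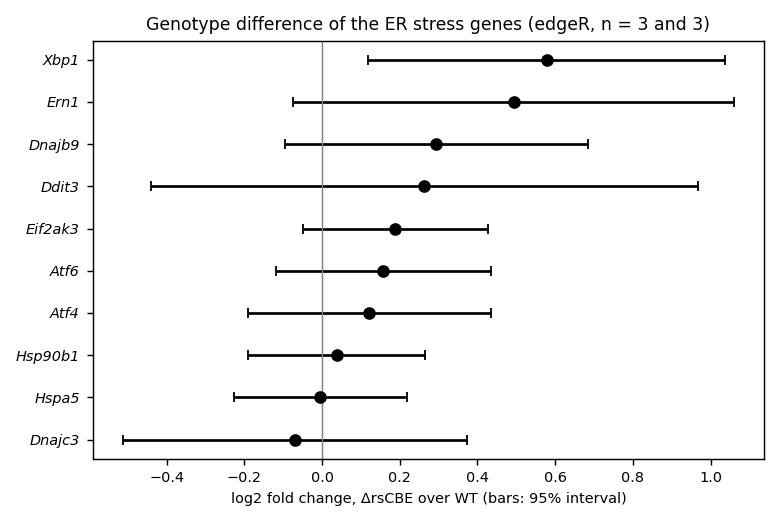
Log2 fold change of each ER stress gene, ΔrsCBE over WT, from edgeR with 3 libraries per genotype; points are estimates and bars 95% intervals. The interval of Xbp1 lies above 0 (0.12 to 1.04, without adjustment for the number of genes tested), and those of the other 9 genes include 0.

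The levels of these genes per length spanned a wide range in small pre-B cells. Expressed as CPM per kilobase of exon (union of the exons in GENCODE M21), the chaperone Hsp90b1 was the most abundant with 441 ± 26.4 in WT and 453 ± 83.6 in ΔrsCBE (SD, n = 3). Hspa5 followed with 116 ± 5.52 in WT and a range of 109 to 122 over the 6 libraries. Atf4 had a WT mean of 101 and a range of 81.5 to 124, so Hspa5 and Atf4 could not be ordered. Eif2ak3 was the most abundant sensor at 59.5 ± 4.48 CPM per kilobase, separate from its neighbours in the order, Atf4 above and Dnajb9 (30.1 ± 5.13) below. Atf6, the next sensor, lay at 22.3 ± 2.43, and its range overlapped those of Dnajb9 and Ddit3 (18.9 ± 9.18). Dnajc3 at 12.0 ± 2.94 and Xbp1 at 11.9 ± 0.650 in WT could not be ordered. The lowest level was that of the sensor Ern1, 3.23 ± 0.387 in WT and 4.42 ± 0.336 in ΔrsCBE, below the range of each other member. The kinases that start the PERK and the IRE1α branch thus stood far apart in mRNA level per length in both genotypes.

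**Figure D2:**
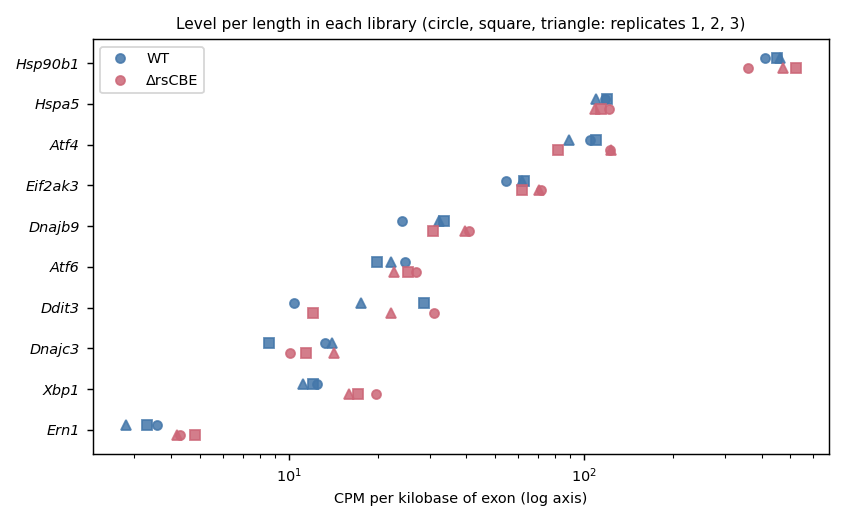
Level of each gene in each library as CPM per kilobase of exon on a log axis, WT in blue and ΔrsCBE in red, with 1 symbol shape per replicate number. Hsp90b1 (360 to 523) stands above all other members and Ern1 (2.81 to 4.81) below them.

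Eif2ak3, which encodes the sensor PERK, lies on chromosome 6 from 70844515 to 70905245 (plus strand), 117.5 kb beyond the end of the kappa constant gene Igkc. It overlaps the snoRNA gene Gm23346 and, on the opposite strand, the unclassified transcript Gm43292. In the order of replicates 1 to 3, used for all values, Eif2ak3 stood at 328, 378 and 371 CPM in WT and at 430, 373 and 424 CPM in ΔrsCBE. ΔrsCBE replicate 2 lay within the WT range and the other two above it, so the groups overlapped. The log2 fold change was 0.19 (standard error, SE, 0.12, 95% interval -0.05 to 0.43, edgeR adjusted p-value 0.630), a change of at most 1.34-fold by that interval.

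The protein-coding gene between Igkc and Eif2ak3 is Rpia, which encodes an enzyme of the pentose phosphate pathway, whose near end lies 38.8 kb beyond Igkc. Rpia had 68.1, 58.9 and 75.2 CPM in WT and 145, 122 and 148 CPM in ΔrsCBE, and its groups did not overlap (log2 fold change 0.99, SE 0.17, edgeR adjusted p-value 0.00127). To compare the neighbours within each library, the log2 CPM of Eif2ak3 was subtracted from that of Rpia. The difference was -2.37 ± 0.22 in WT and -1.55 ± 0.04 in ΔrsCBE (SD, n = 3), an increase of 0.82 with an exact two-sided permutation p-value of 0.1, the smallest that 3 libraries against 3 can give. All 3 ΔrsCBE libraries lay above all 3 WT libraries in this difference. Rpia was chosen for comparison with its own change already known. Beyond Eif2ak3, the next protein-coding genes Tex37, Foxi3 and Thnsl2 had 0 counts in all 6 libraries, which allows at most 3 counts per library, so a change there was not detectable. The locus-wide entry Igk averaged 1725 ± 75.6 CPM in WT against 1990 ± 123 CPM in ΔrsCBE (log2 fold change 0.21, edgeR adjusted p-value 0.400), and Igh had 2642 ± 175 and 2882 ± 384 CPM (log2 fold change 0.13, edgeR adjusted p-value 0.739).

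The genes whose values followed Eif2ak3 most closely were Zfp276, Zc3h7b, Trim11, Dhx57 and Tgfbr1. Their log2 CPM, centred on the mean of the 6 libraries, differed from that of Eif2ak3 by a root mean square of 0.041 to 0.049, among 3868 genes with a mean of at least 50 CPM. A difference of at most 0.1 was reached by 130 of these genes. The deviations of Eif2ak3 from its own mean were themselves small, from -0.22 to 0.17, so genes that vary little also lie near it. Whether the 130 genes share more than little variation was not tested.

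Ern1, the gene of the sensor IRE1α (chromosome 11, 106394650 to 106487852, minus strand), was measured at 29.2, 27.0 and 23.0 CPM in WT and 35.1, 39.3 and 34.1 CPM in ΔrsCBE. The groups were apart, as they were for 16.1% of all tested genes (7.23% with ΔrsCBE above and 8.92% with it below), and Xbp1 was the only other member of which this held. Its log2 fold change of 0.49 did not pass the test (SE 0.28, edgeR adjusted p-value 0.586). With 152 counts over all 6 libraries its interval reached from -0.07 to 1.06, so a change of up to 2.09-fold is within it.

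Xbp1, the transcription factor downstream of IRE1α (chromosome 11, 5520659 to 5525893, plus strand), had the largest fold change of the group. Its values were 40.6, 39.2 and 36.4 CPM in WT and 64.2, 55.8 and 51.8 CPM in ΔrsCBE. Every ΔrsCBE library lay above every WT library, as for Ern1, and the means were 38.7 ± 2.11 and 57.2 ± 6.31 CPM (SD, n = 3). The log2 fold change was 0.58 (SE 0.22, unadjusted p-value 0.0156 and adjusted p-value 0.294 by edgeR). Since Xbp1 is also a plasma cell gene, the other markers of that cell type are given beside it. Jchain had 1 count in all libraries together and Tnfrsf17 had 0, while Sdc1 and Irf4 had log2 fold changes of 0.03 and 0.07. Mzb1 had a log2 fold change of -0.45 (67.8 ± 22.8 CPM in WT, 49.2 ± 21.3 CPM in ΔrsCBE, edgeR adjusted p-value 0.620). Prdm1 (7.36 to 11.4 CPM in WT, 3.63 to 8.27 CPM in ΔrsCBE) and Derl3 (2.38 to 8.11 and 2.42 to 6.31 CPM) were too low to be tested, and the groups of all 3 overlapped. The 5 plasma cell markers outside the ER stress lists summed to 1094 to 1222 CPM in WT and 1078 to 1365 CPM in ΔrsCBE, most of it Irf4, which pre-B cells also express.

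Atf6, the sensor that becomes a transcription factor (chromosome 1, 170704674 to 170867771, minus strand), was measured at 229, 184 and 205 CPM in WT and 249, 234 and 210 CPM in ΔrsCBE. The groups overlapped, and the log2 fold change was 0.16 (SE 0.13, edgeR adjusted p-value 0.771).

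**Figure D3:**
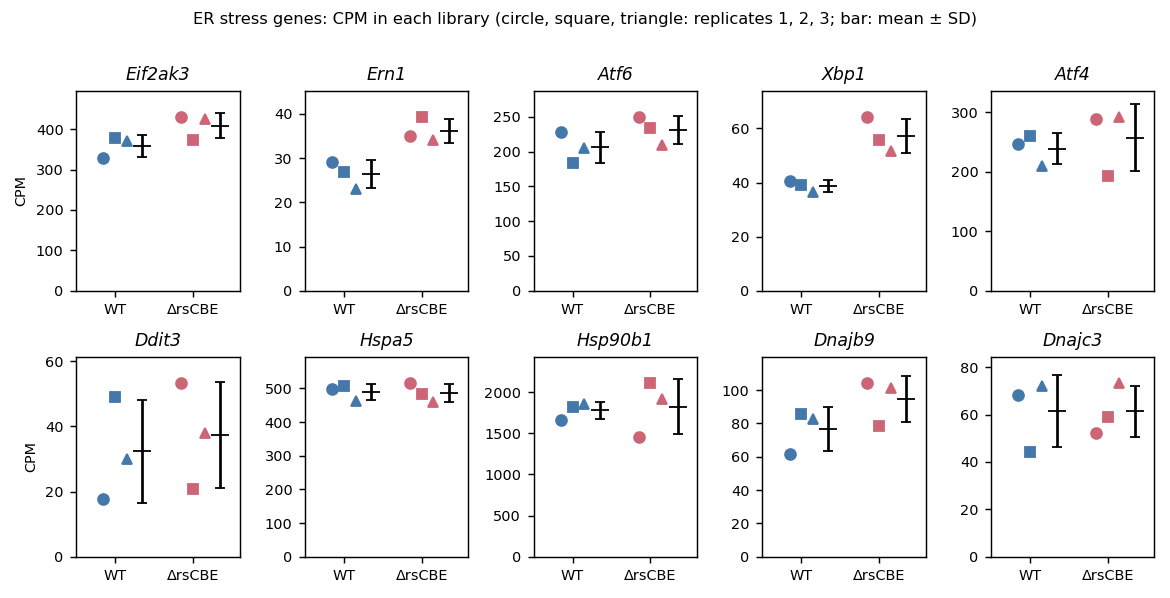
CPM of the 10 ER stress genes in each library, with symbols for the replicates and bars for mean ± SD (n = 3); each vertical axis starts at 0. The groups are apart for Ern1 and Xbp1 and overlap for the other 8 genes.

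Downstream of PERK, Atf4 and Ddit3 varied more between replicates than between genotypes. Atf4 (chromosome 15, 80255184 to 80257541, plus strand) had 247, 260 and 210 CPM in WT and 288, 192 and 292 CPM in ΔrsCBE, with the lowest and the highest value of the 6 both in ΔrsCBE. Its log2 fold change was 0.12 (SE 0.15, edgeR adjusted p-value 0.857), and ran from 0.020 without ΔrsCBE replicate 3 to 0.30 without ΔrsCBE replicate 2. ATF4 protein is set largely by translation, which RNA counts do not show. Ddit3 (chromosome 10, 127290774 to 127296288, plus strand), the gene of the pro-apoptotic factor CHOP, had 17.8, 49.0 and 30.1 CPM in WT and 53.3, 20.7 and 37.9 CPM in ΔrsCBE, from 11 to 44 counts per library. Neither genotype was consistently higher, and the log2 fold change of 0.26 did not pass the test (SE 0.34, edgeR adjusted p-value 0.866). Without ΔrsCBE replicate 1 its sign turned, to -0.091. Ddit3 overlaps Mars1 on the opposite strand (named Mars in GENCODE M21), and its count is uncertain if the counting did not use the strand.

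Replicate spread can be set against counting error with the within-genotype chi-square per degree of freedom, which is near 1 where counting error alone separates the libraries. It was 7.12 for Atf4 and 5.20 for Ddit3, where genes with a total count between 0.5 and 2 times theirs had medians of 1.89 and 1.27. Hsp90b1 had 26.8, beside a median of 6.22 over 92 genes of like total. Ern1 (0.273) and Xbp1 (0.376), the genes whose groups were apart, showed no spread beyond counting error, and for the other 5 genes the value lay between 1.25 and 1.77.

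Within ΔrsCBE, replicate 2 had the lowest value of Eif2ak3, Atf4, Ddit3 and Dnajb9, genes singled out after their values were seen, and it also had the lowest mean deviation of the early-response genes (-0.18, against 0.66 and 0.52 in replicates 1 and 3). Ppp1r15a, the eIF2α phosphatase subunit that ends the PERK signal, had 230, 98.2 and 205 CPM in these replicates and 161, 108 and 120 CPM in WT. Atf3, another ATF4 target, had 20.6, 2.07 and 25.3 CPM there, from 17, 2 and 20 counts, and at most 9.73 CPM in WT. It is on both the early-response list and the list of integrated stress response targets. Atf3 was too low to be tested, so it is left out of the mean deviations of both lists. The log2 fold change of Ppp1r15a was 0.44 over all libraries (SE 0.30, edgeR adjusted p-value 0.713). Without ΔrsCBE replicate 2 it was 0.74 and passed the test (edgeR adjusted p-value 0.00533), whereas in the other 13 alternatives its adjusted p-value lay between 0.272 and 0.9997. The fixed list of integrated stress response targets was not lowest in replicate 2: its mean deviation was -0.0555, 0.0141 and -0.0054 in ΔrsCBE replicates 1 to 3. Among the 5 related lists given below, only sensors and their regulators, which include Ppp1r15a, were lowest in replicate 2 within ΔrsCBE (0.0761, -0.0483 and 0.0696). Over all 6 libraries, 1 of the 13 tested targets was lowest in ΔrsCBE replicate 2 and 5 in ΔrsCBE replicate 3. The counts were 1 and 1 for the 10 ER stress genes, and the shares of all tested genes 14.1% and 17.2%. In WT, Ddit3 was highest in replicate 2, where the early-response genes were lowest (-0.47). The part of the early-response genes in these values was not tested.

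**Figure D4:**
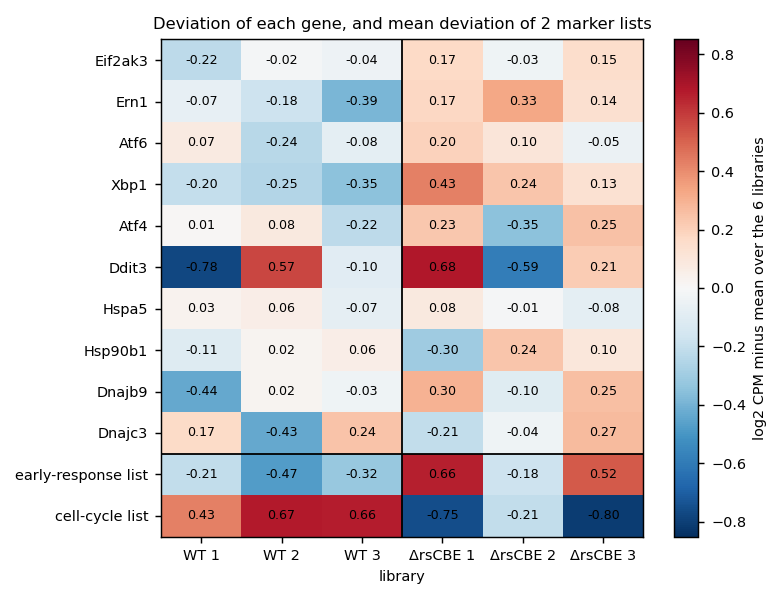
Log2 CPM of each ER stress gene minus its mean over the 6 libraries, and below the line the mean deviation over the tested genes of the early-response list (10 genes) and of the cell-cycle list (17 genes). Of the 10 ER stress genes, 6 have their highest value in ΔrsCBE replicate 1, 2 in replicate 2, 2 in replicate 3 and 0 in a WT library. The shares of all tested genes are 18.2%, 15.6% and 15.8% in these ΔrsCBE libraries. In WT replicates 1, 2 and 3 they are 16.35%, 22.2% and 11.8%.

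The chaperones Hspa5 and Hsp90b1, the members with the most counts, had log2 fold changes close to 0. Hspa5 (chromosome 2, 34771970 to 34777547, plus strand), the gene of BiP, had 498, 508 and 463 CPM in WT and 516, 484 and 460 CPM in ΔrsCBE. The groups overlapped almost fully, and the log2 fold change was -0.0044 with a 95% interval of -0.23 to 0.22 (edgeR adjusted p-value 0.997). A rise of more than 1.16-fold or a fall to less than 0.855 of the WT level is outside that interval. Hsp90b1 (chromosome 10, 86690209 to 86705509, minus strand), the gene of GRP94, had 1658, 1815 and 1862 CPM in WT and 1452, 2109 and 1912 CPM in ΔrsCBE. Its log2 fold change was 0.04, with an interval of -0.19 to 0.26 (edgeR adjusted p-value 0.965), and both the lowest and the highest library were ΔrsCBE. In ΔrsCBE replicate 1 Hspa5 was at its highest and Hsp90b1 at its lowest, so their CPM ratio was 2.82 there and between 3.33 and 4.36 in the other 5 libraries. Hsp90b1 overlaps the pseudogene 1810014B01Rik on the opposite strand.

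Among the co-chaperones, Dnajb9 (chromosome 12, 44205559 to 44210326, minus strand), a target of XBP1 that helps clear misfolded protein, had 61.7, 85.8 and 82.4 CPM in WT and 104, 78.5 and 101 CPM in ΔrsCBE. The groups overlapped through ΔrsCBE replicate 2, and the log2 fold change was 0.29 (SE 0.19, edgeR adjusted p-value 0.655). Dnajc3 (chromosome 14, 118937976 to 118981697, plus strand), a co-chaperone of BiP, had 68.1, 44.1 and 72.1 CPM in WT and 52.0, 58.9 and 73.3 CPM in ΔrsCBE. Its means were both 61.4 CPM, and its log2 fold change of -0.07 did not pass the test (SE 0.21, edgeR adjusted p-value 0.965).

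With all libraries and genotype as the sole factor, the members with an ERSE match thus had the 3 log2 fold changes nearest to 0. This order did not hold in every alternative. With the sex covariate, Hsp90b1 (-0.29) and Dnajc3 (-0.31) lay farther from 0 than Eif2ak3 (0.26) and Atf6 (0.27). Dnajc3 lay farther from 0 than Atf6 without WT replicate 2 (-0.195 and 0.105). It lay farther than Atf4 without ΔrsCBE replicate 3 (-0.21 and 0.020). The remaining genes with a match were examined as well. Of 37 such genes, 11 were tested, the 3 members included, and 0 passed the test in either direction. Their median log2 fold change was -0.04, from -0.23 for Calr, the chaperone calreticulin, to 0.23 for Syvn1, the ubiquitin ligase HRD1. None of the 11 had an unadjusted p-value under 0.05 by edgeR, and the groups were apart for 0 of them, beside 10.2% and 16.1% of all tested genes. Without the 3 members, 8 genes remained, with a median of -0.056. This list was made after the values of the members had been seen.

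Other genes of the response were compared in 5 lists with 119 genes in all, of which 91 were tested. By edgeR's test 0 of them were higher and 1 was lower in ΔrsCBE, and 6 had an unadjusted p-value under 0.05. The groups were apart for 12 of the 91, with ΔrsCBE above for 5 and below for 7. Over all tested genes the shares were 1.69% past the test, 10.2% at the unadjusted p-value and 16.1% apart.

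The gene that fell was Hspa13, an Hsp70-type ATPase of the microsomes, at 17.8, 19.6 and 16.6 CPM in WT and 7.26, 4.13 and 2.53 CPM in ΔrsCBE. The groups were apart, with a log2 fold change of -1.89 (SE 0.48, edgeR adjusted p-value 0.0376), but the ΔrsCBE values rest on 6, 4 and 2 counts. Its call was lost in 8 of 14 alternatives: the fits that left out any 1 library other than ΔrsCBE replicate 1 (edgeR adjusted p-values 0.114 to 0.307), the replicate block (0.0529), the DESeq2 Wald test (0.187) and the sex covariate (0.482). Its log2 fold change was -1.63 to -1.96 in those leave-one-out fits, -1.95 with the block and -1.94 with DESeq2. With the sex covariate it was -1.26, an estimate that sets ΔrsCBE replicate 1, the sole male library of its genotype, alone against WT.

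Among sensors and their regulators, 15 of 19 genes were tested and 0 passed. Values ran from -0.39 for Eif2s1, which encodes the eIF2α subunit that PERK phosphorylates, to 0.53 for Creb3, an ER-bound transcription factor of the ATF6 kind, with a median of 0.15. Eif2s1 stood at 103.8, 71.1 and 75.2 CPM in WT and at 66.6, 66.1 and 56.8 CPM in ΔrsCBE, groups that were apart, and did not pass the test (edgeR adjusted p-value 0.515). Of 26 targets of the integrated stress response, 13 were tested and 0 passed, with a median of -0.11 and a range from -0.32 for the tRNA synthetase gene Nars to 0.49 for Ddit4, an inhibitor of mTORC1. Ddit4 rested on ΔrsCBE replicate 3, with 103.6 CPM there and 34.3 to 50.7 CPM in the other 5 libraries, and its log2 fold change was -0.0051 without that library. Many classical targets were barely detected: over all 6 libraries Trib3 had 5 counts, Chac1 2 and Asns 2, and Slc7a11, Vldlr, Nupr1 and Stc2 had 0, so a difference in them was not detectable at this depth.

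ER chaperones and folding enzymes had 22 of 26 genes tested, with Hspa13 lower, 0 higher and a median of 0.00069; the highest value was 0.47 for Dnajb11, a BiP co-chaperone. Dnajb11 stood at 55.2, 49.0 and 52.3 CPM in WT and at 61.7, 80.6 and 75.8 CPM in ΔrsCBE, apart but not past the test (edgeR adjusted p-value 0.385). Genes of ER-associated degradation, which returns misfolded protein to the cytosol, had 23 of 25 tested and 0 past the test, with a median of 0.06. They ran from -0.35 for the ubiquitin ligase gene Rnf139 to 0.56 for Vcp, the ATPase that extracts the substrates. The value of Vcp was 1.03 without WT replicate 3 and 0.0026 with the sex covariate, which sets ΔrsCBE replicate 1 alone against WT. For translocation into and export from the ER, 18 of 23 genes were tested and 0 passed, with a median of 0.06, from -0.34 for Kdelr2 to 0.48 for Kdelr1, both receptors that retrieve ER residents.

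**Figure D5:**
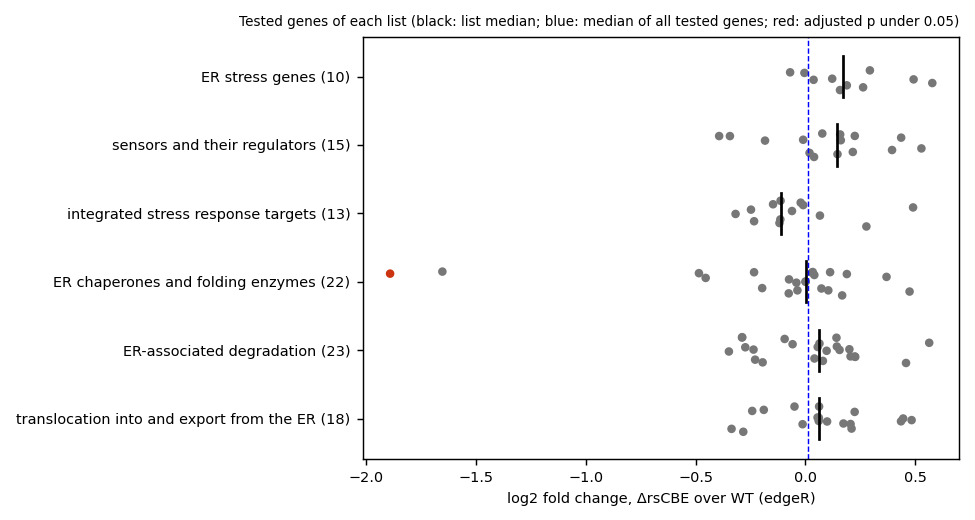
Log2 fold changes (edgeR, ΔrsCBE over WT) of the tested genes of the ER stress group and of the 5 related lists, with the number tested in brackets, the list median in black and the median over all tested genes (0.01) as a blue dashed line. The red point is Hspa13 at -1.89, the 1 gene of these lists past the test.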

How the data were processed

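The table the authors deposited gives raw counts of reads for each symbol and library, and columns were matched to samples by library name. Per the submitters' processing notes, Trim Galore 0.6.10, STAR 2.7.11, HTSeq and DESeq2 were used with the build mm10; their settings, the annotation and the strand setting are not given in the sources used here. Per the labels' protocols, RNA was depleted of ribosomal RNA and libraries were made with a stranded total RNA kit.

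Counts were tested with edgeR 4.0.16 in R 4.3.3 (filterByExpr with a minimum count of 10, TMM, glmQLFit with robust estimation, genotype as the sole factor), which left 7792 genes; adjusted p-values under 0.05 were called. Log2 CPM used a prior count of 2. CPM is on TMM-scaled totals. The annotation was GENCODE M21 (GRCm38, the mm10 assembly); 49997 symbols matched the RefSeq table. Alternatives were 3 other scalings, the DESeq2 1.42.0 Wald test, other count filters, a threshold of 0.1, a replicate block, a sex covariate and each library left out; the ERSE genes without a count filter (median -0.04) were added after seeing the data. The floor of 3 counts covers counting error only. Replicates of a genotype differed beyond counting error (chi-square over its degrees of freedom 1.78 to 3.18), so each was counted once.

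The members, the lists and the tests were chosen with earlier results of these data known. Named genes are the members; of each list the genes past the threshold and the highest and lowest; the neighbours of Eif2ak3; the 5 genes nearest to it in pattern; and the Igk and Igh entries. Ppp1r15a, Atf3, the marker genes, Calr, Syvn1 and the genes named as barely detected were chosen after their values were seen.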

Additional observations from a re-analysis of the deposited data

How the results depend on the processing

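Under 15 alternatives in scaling, test, filter, threshold, covariate and libraries, 0 of the 10 ER stress genes passed the threshold, and their smallest adjusted p-value lay between 0.277 and 0.929. All 3 scalings left the median over all genes within 0.1 of 0. The median log2 fold change of the 10 genes, 0.17, became 0.28 once sex was a covariate, and 0.12 to 0.28 with 1 library left out. With the sex covariate, each estimate sets ΔrsCBE replicate 1, the sole male library of its genotype, alone against WT. This holds for every log2 fold change given with that covariate. The count over all genes, 132, fell to 87 with the sex covariate and was 59 to 187 with 1 library left out, 59 both without WT replicate 3 and without ΔrsCBE replicate 3; 112, 97, 157 and 187 genes were called without WT replicate 1 or 2 and without ΔrsCBE replicate 1 or 2, and the cause was not tested. The count of 1 gene of the related lists, Hspa13, became 0 with the DESeq2 Wald test, with the replicate block and with the sex covariate (the cause was not tested), and 0 to 1 with 1 library left out, the 1 being Hspa13 without ΔrsCBE replicate 1 and Ppp1r15a without ΔrsCBE replicate 2.

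Some signs turned. Hspa5 was at 0.0055 with library size alone, 0.012 with upper quartile scaling, 0.0081 without a count filter, 0.017 with the filter at 1 CPM in 3 libraries, 0.082 with the sex covariate and -0.048 to 0.032 with 1 library left out. Hsp90b1 was at -0.29 with the sex covariate and -0.078 to 0.18 with 1 library left out, Dnajc3 at -0.21 to 0.089 and Ddit3 at -0.091 to 0.58. Of the other named genes, Igh was at -0.090 and Sdc1 at -0.35 with the sex covariate, and leaving out 1 library put Sdc1 at -0.18 to 0.18, Irf4 at -0.037 to 0.17 and Ddit4 at -0.0051 to 0.72. Without a change of sign, leaving out 1 library put Eif2ak3 at 0.13 to 0.25, Ern1 at 0.36 to 0.58, Atf6 at 0.098 to 0.23, Xbp1 at 0.49 to 0.64, Atf4 at 0.020 to 0.30, Dnajb9 at 0.17 to 0.42, Creb3 at 0.29 to 0.94, Kdelr1 at 0.25 to 0.66 and Kdelr2 at -0.50 to -0.14. The Rpia minus Eif2ak3 difference was 0.69 to 0.90 with 1 library left out. With replicate numbers as a block it was 0.82 (exact sign-flip p-value 0.25, the smallest 3 pairs allow), and 136 genes were called in all. The numbers share no stated origin, and deviations of same-numbered libraries correlated by -0.0014 to 0.041. The depth limits Ern1, Xbp1 and Ddit3 most, with 152 to 235 counts in all.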
